A study of Mus musculus with 6 samples.

Results

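Wfs1, Pou3f1, Fibcd1, Mpped1 and Spink8 are marker genes of the pyramidal neurons of hippocampal area CA1. The 5 genes were taken as a set and matched by symbol to Ensembl identifiers. They are 5 of the 52550 genes in the count table, and all 5 were among the 17621 genes with enough reads to be tested. Their splicing events were found by gene symbol and made up 8 of 40961 events.

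RNA from the mouse hippocampus was sequenced from 3 control libraries and 3 libraries labelled L-DL KD (called labelled KD from here). L-DL is the long isoform of the RNA-binding protein hnRNP DL, and the study asked how its loss alters RNA splicing in the hippocampus. Per the study's methods, male wild-type C57BL/6 J mice received adeno-associated virus in CA1 of both hemispheres at 8 weeks of age, with shRNA against L-DL or with a control shRNA. The sample labels call the control mice wild type and the others hnRNP DL KD. The L-DL shRNAs were placed in tandem, each under an H1 promoter that is not specific to a cell type, and a CamkIIα promoter drove the zsGreen reporter that marked the injected neurons. By the same methods, the titre of the virus given to the control mice was the higher one. The injected area was CA1, while the labels name the whole hippocampus as the tissue, and the share of injected cells in each library is not given. The labels number the libraries but do not say more about the animals behind them, and the p-values measure the spread between these libraries, which may be technical.

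The libraries held between 16052529 and 17913064 counts. Hnrnpdl, the targeted gene, was counted 2862, 3120 and 2689 times in control and 3939, 2680 and 2904 times in the libraries labelled KD. Its log2 fold change was 0.03 (SE 0.12, n = 3 and 3, adjusted p = 0.898, edgeR quasi-likelihood test with Benjamini-Hochberg adjustment). The gene count does not tell the L-DL isoform from the others. A lower level of Hnrnpdl RNA was thus not detected, and every direction below is that of the libraries labelled KD against control. The library labelled KD 1 stood apart from the rest on the second principal component, at -52.51 against -1.91 to 27 in the other 5 libraries. The summed level of 8 choroid plexus genes varied within both groups, from 444.9 to 4682 CPM (the usual unit of read counts scaled to the size of the library) in the control libraries and from 32.84 to 5248 CPM in the libraries labelled KD. The median log2 fold change of these 8 genes was -0.35. When each library was left out, it ran from -3.78 without the library labelled KD 1 to 0.71 without control 3.

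CA1 pyramidal neurons are the main output cells of the hippocampus. They receive input from CA3 through the Schaffer collaterals and directly from the entorhinal cortex, and CA1 is needed for spatial and contextual memory. They share vesicular glutamate transport and CaMKII with other excitatory neurons, and are told apart from CA3 and dentate granule cells by genes such as those described here, which code for proteins of unrelated function.

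The levels of 4 of the 5 markers fell in the libraries labelled KD. Pou3f1 fell most, to 0.313 of the control level, and Spink8, Mpped1 and Wfs1 fell to 0.436, 0.483 and 0.603 of it. Fibcd1 was at 1.24 times the control level and did not pass the test. Over all genes tested, 15.0% were called lower and 15.6% higher at an adjusted p under 0.05. The median log2 fold change was -1.05 over the 5 markers and 0.01 over all 17621 genes. The control and the libraries labelled KD did not overlap for the 4 genes that fell, and 23.4% of all genes tested were separated in that direction. A total of 5379 genes were called, or 3524, 3541 and 3498 without control 1, 2 or 3. In bulk tissue, fewer cells of a type and less RNA per cell cannot be told apart.

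**Figure D1:**
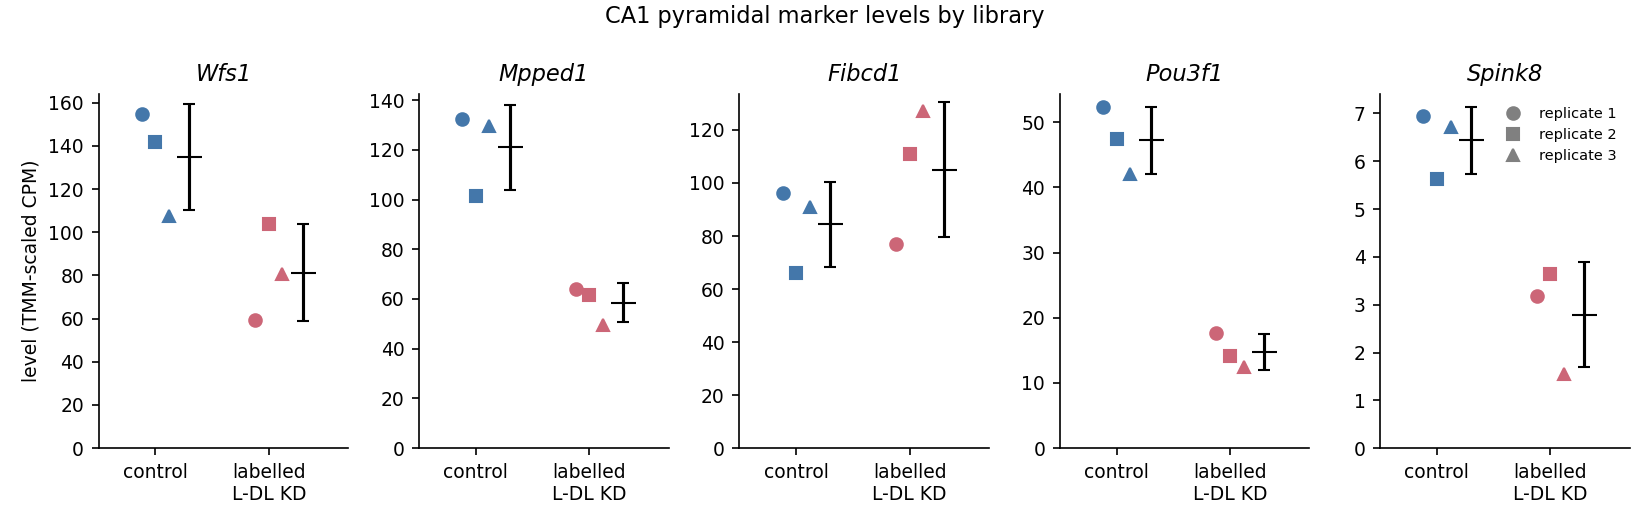
Level of each marker in TMM-scaled CPM (y axis, from 0) in the 3 control libraries (blue) and the 3 libraries labelled KD (red), with the replicate number as the point shape and the mean ± SD as the bar at the right of each group. The groups lay apart for Wfs1, Mpped1, Pou3f1 and Spink8 and overlapped for Fibcd1.

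Pou3f1 (ENSMUSG00000090125) encodes a POU-domain transcription factor that binds the octamer motif and marks CA1 as well as early neural and Schwann cells. It is a single-exon gene at chr4:124656807-124660655 on the plus strand of GRCm38. Its levels were 52.3, 47.4 and 42.0 CPM in control and 17.7, 14.1 and 12.4 CPM in the libraries labelled KD. The lowest control library was thus far above the highest library labelled KD, and the mean went from 47.2 ± 5.14 to 14.8 ± 2.70 CPM (SD, n = 3 each). The log2 fold change was -1.68 (SE 0.15, 95% confidence interval -2.02 to -1.34, edgeR adjusted p = 0.000266). Of the 17621 genes tested, Pou3f1 ranked at 204 by p-value. The call held without each of the 6 libraries in turn, with log2 fold changes from -1.83 to -1.57.

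The lncRNA gene Gm2164 lies antisense to Pou3f1 and shares 363 nt of its span. It had 47, 33 and 32 counts in control and 11, 18 and 4 counts in the libraries labelled KD. Gm2164 fell with a log2 fold change of -1.87 (SE 0.47, edgeR adjusted p = 0.0188). The counting is not stated to use strand, so reads of Gm2164 and Pou3f1 in the shared stretch cannot be told apart. Its counts were a small part of those of Pou3f1, which were 850, 807 and 663 in control and 322, 252 and 209 in the libraries labelled KD.

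Among relatives of Pou3f1, Pou3f3, another neural POU-domain factor, also fell, from 141.7, 145.8 and 133.1 CPM in control to 83.1, 82.0 and 71.8 CPM in the libraries labelled KD. Its groups did not overlap and its log2 fold change was -0.83 (SE 0.08, edgeR adjusted p = 0.00035). Pou3f2, Pou3f4 and the octamer factor Pou2f1 had log2 fold changes of 0.14, 0.08 and -0.06 and did not pass the test. Without the library labelled KD 1, 1 gene among the relatives of the markers was called higher.

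Wfs1 (ENSMUSG00000039474) encodes wolframin, a membrane glycoprotein of the endoplasmic reticulum whose loss causes Wolfram syndrome. The gene lies at chr5:36966104-36989205 on the minus strand and has up to 8 exons. Its levels were 154.9, 141.9 and 107.7 CPM in control and 59.4, 104.0 and 80.4 CPM in the libraries labelled KD. Both groups were widely spread, and control 3 and the library labelled KD 2 were close to each other. The mean went from 134.9 ± 24.4 to 81.3 ± 22.3 CPM (SD, n = 3 each). The log2 fold change was -0.73 (SE 0.21, 95% confidence interval -1.20 to -0.26, edgeR adjusted p = 0.0292). The Wfs1 call was lost without control 1 (log2 fold change -0.62, edgeR adjusted p = 0.103), without control 2 (-0.69, edgeR adjusted p = 0.088) and without the library labelled KD 3 (-0.72, edgeR adjusted p = 0.067).

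Wolframin is known to act in the response to unfolded proteins in the endoplasmic reticulum. Of 20 genes of that response tested, 3 rose and 3 fell, which is close to the shares of 15.0% lower and 15.6% higher over all genes tested. Their median log2 fold change was -0.05, and it ran from -0.19 without the library labelled KD 2 to 0.15 without the library labelled KD 1, with -0.11, -0.09 and 0.01 without the library labelled KD 3, control 1 and control 3. Edem1, which sends misfolded glycoproteins to degradation, and the sensor kinase Ern1 rose by log2 fold changes of 0.51 and 0.43 (edgeR adjusted p = 0.0194 and 0.0145). Sel1l, a subunit of the degradation ligase, and the disulfide isomerase Pdia6 fell, with log2 fold changes of -0.84 and -0.61 (edgeR adjusted p = 0.00101 and 0.0288). The number of the 20 genes called higher was 8 without the library labelled KD 1, and 1 without control 1, control 3 or the libraries labelled KD 2 or KD 3, and the genes that rose lost their call without control 2. Cisd2, the other gene of Wolfram syndrome, had a log2 fold change of -0.08 (edgeR adjusted p = 0.512).

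Mpped1 (ENSMUSG00000041708) encodes a metallophosphoesterase-domain protein of the brain. The gene lies at chr15:83779467-83858494 on the plus strand and has 11 annotated transcripts. Its levels were 132.2, 101.4 and 129.7 CPM in control and 64.2, 61.8 and 49.6 CPM in the libraries labelled KD. All 3 libraries labelled KD lay far below the lowest control library, and the mean went from 121.1 ± 17.1 to 58.5 ± 7.84 CPM (SD, n = 3 each). The log2 fold change was -1.05 (SE 0.13, 95% confidence interval -1.35 to -0.74, edgeR adjusted p = 0.00107). The call held without each of the 6 libraries in turn, with log2 fold changes from -1.16 to -0.94. Its paralog Mpped2 went from 24.3, 23.3 and 22.8 CPM in control to 19.7, 13.2 and 12.6 CPM, with a log2 fold change of -0.63 (SE 0.18, edgeR adjusted p = 0.0293) and no overlap between groups. Of Pou3f3 and Mpped2, the relatives of the markers that fell, only 1 was called lower without control 1, 2 or 3 or without the libraries labelled KD 2 or KD 3.

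Spink8 (ENSMUSG00000050074) encodes a small secreted protein of the Kazal family of serine protease inhibitors. The gene lies at chr9:109812280-109826633 on the plus strand, and it was the least abundant of the 5 markers, with 113, 96 and 106 counts in control and 58, 65 and 26 in the libraries labelled KD. These counts correspond to 6.95, 5.64 and 6.72 CPM in control and to 3.19, 3.64 and 1.55 CPM in the libraries labelled KD. The groups did not overlap, and the library labelled KD 3 was lower than the other libraries of its group. The log2 fold change was -1.20 (SE 0.31, 95% confidence interval -1.90 to -0.50, edgeR adjusted p = 0.0198). The Spink8 call was lost without control 1 (log2 fold change -1.14, edgeR adjusted p = 0.07) and without control 3 (-1.17, edgeR adjusted p = 0.0657).

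Of the other Kazal inhibitor genes looked at, Spink1, Spink2, Spink4 and Spink5 were hardly detected in these libraries. Spink1 and Spink5 had a count of 0 in all 6 libraries, Spink2 reached 16 counts in control 2 and at most 1 count elsewhere, and Spink4 reached at most 3 counts. Spink10 had 13 to 32 counts over the 6 libraries and a log2 fold change of -0.43 (SE 0.35, edgeR adjusted p = 0.397).

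Fibcd1 (ENSMUSG00000026841) encodes a membrane receptor with a fibrinogen-like domain that binds acetylated sugars such as chitin and glycosaminoglycans. The gene lies at chr2:31813290-31846005 on the minus strand and has 7 exons. Its levels were 96.1, 66.2 and 91.1 CPM in control and 77.0, 111.0 and 127.0 CPM in the libraries labelled KD. The library labelled KD 1 lay within the control range, and the other libraries of its group lay above it. The mean was 84.5 ± 16.0 CPM in control and 105.0 ± 25.6 CPM in the libraries labelled KD (SD, n = 3 each). The log2 fold change was 0.31 (SE 0.20, 95% confidence interval -0.14 to 0.77, edgeR adjusted p = 0.269). Without the library labelled KD 1, Fibcd1 was called higher, with a log2 fold change of 0.50 (edgeR adjusted p = 0.026). Without each of the other 5 libraries in turn it did not pass the test.

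The interval for Fibcd1 shared no value with those of the other 4 markers, and Fibcd1 was therefore also set against each of them within a library, where the scaling of libraries cancels. The ratio of Fibcd1 to Wfs1 counts was 0.620, 0.467 and 0.846 in control and 1.30, 1.07 and 1.58 in the libraries labelled KD. The ratio to Mpped1 counts was 0.727, 0.653 and 0.702 in control and 1.20, 1.80 and 2.56 in the libraries labelled KD. In every control library Fibcd1 thus had fewer reads than Wfs1 and Mpped1, and in every library labelled KD it had more. The ratio to Pou3f1 counts was 1.84, 1.40 and 2.17 in control and 4.35, 7.87 and 10.2 in the libraries labelled KD. The ratio to Spink8 counts was 13.8, 11.7 and 13.6 in control and 24.1, 30.5 and 82.1 in the libraries labelled KD. None of the 4 ratios overlapped between groups, and they share the Fibcd1 counts. Of single genes tested, 47.2% did not overlap in either direction. The mean log2 ratio was higher by 1.05 against Wfs1, 1.35 against Mpped1, 1.59 against Spink8 and 1.99 against Pou3f1. The ratios were formed after the fold changes had been seen and are given as a description, with no test.

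**Figure D2:**
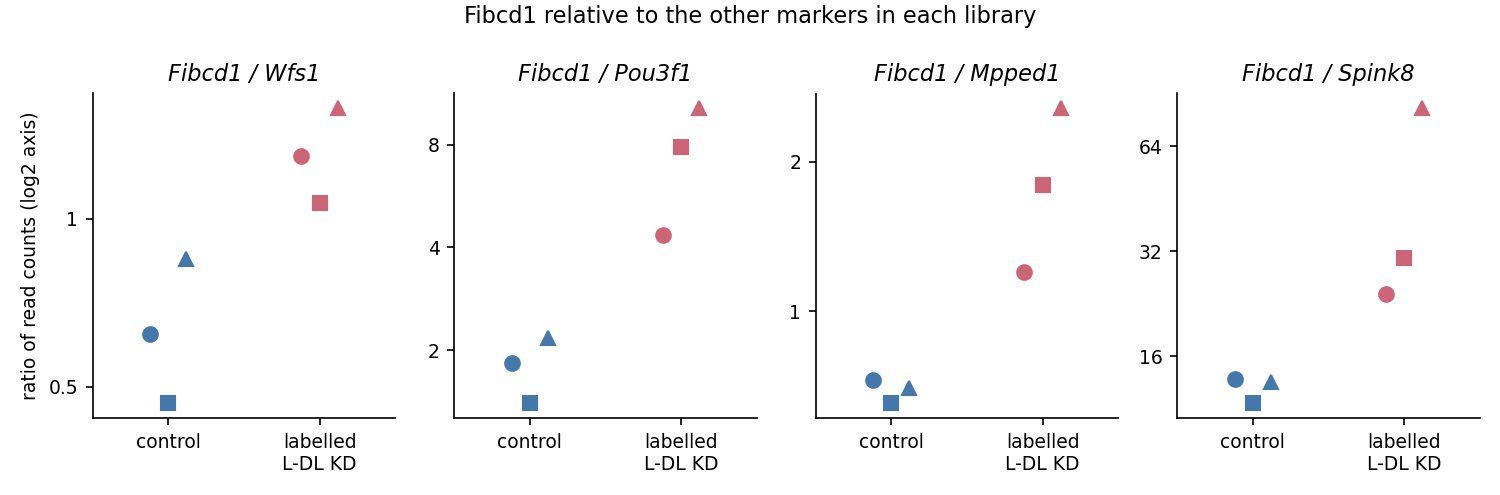
Ratio of Fibcd1 read counts to those of Wfs1, Pou3f1, Mpped1 and Spink8 (y axis, log2 scale, with its own range in each panel) in each control library (blue) and each library labelled KD (red), with the replicate number as the point shape (circle 1, square 2, triangle 3). In each panel all 3 red points lie above all 3 blue points.

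Levels of different genes were compared after division by the length of their merged exons, in CPM per kb. In control the order was Wfs1 with a mean of 35.6, Mpped1 with 28.2, Fibcd1 with 17.8, Pou3f1 with 12.3 and Spink8 with 7.84 CPM per kb. Wfs1 and Mpped1 overlapped, with control libraries at 28.4 to 40.9 and 23.6 to 30.8 CPM per kb, and the other neighbours in this order did not overlap. In the libraries labelled KD the order was Fibcd1 with 22.1, Wfs1 with 21.5, Mpped1 with 13.6, Pou3f1 with 3.83 and Spink8 with 3.40 CPM per kb. There Fibcd1 overlapped with Wfs1, and Pou3f1 overlapped with Spink8, whose libraries ranged from 3.23 to 4.60 and from 1.88 to 4.43 CPM per kb. Fibcd1 thus ranked below Wfs1 and Mpped1 by mean level in control and above both in the libraries labelled KD, where its lead over Wfs1 was within the spread.

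The markers also differed in which library was lowest. The library labelled KD 1 was lowest for Wfs1, and among libraries labelled KD it was also lowest for Fibcd1, while the library labelled KD 3 was lowest for Pou3f1, Mpped1 and Spink8. The likeness of 2 genes was measured as the root mean square difference of their log2 CPM over the 6 libraries, each gene centred on its own mean, so that 0 is an identical pattern. Mpped1 and Spink8 were the most alike pair, at 0.28, and Pou3f1 and Fibcd1 the least alike, at 1.07. Fibcd1 was at 0.60 or more from each of the other markers. These values describe 6 libraries of 2 groups and rest largely on the difference between the groups.

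By the same measure, over 16113 genes, the genes closest to Pou3f1 were Bend6, Panx2 and Ina, at 0.08, 0.09 and 0.10. Panx2 encodes a pannexin and Ina the neuronal intermediate filament protein internexin, and they fell with log2 fold changes of -1.74 and -1.81. The genes closest to Mpped1 were Pdzd7, Prkcb and Srrm3, at 0.08, 0.08 and 0.09. Prkcb, a protein kinase C isoform of neurons, fell by 1.04 on the log2 scale, and Srrm3, a neuronal splicing regulator, fell by 1.04 on the log2 scale. The closest to Spink8 were the annotated locus 9430021M05Rik, the muscarinic receptor gene Chrm2 and the serotonin receptor gene Htr5b, at 0.12, 0.14 and 0.14. Wfs1 was followed by Hmmr, Gm43413 and Cd3g, at 0.13, 0.14 and 0.14, and none of these 3 passed the edgeR test of the groups. Fibcd1 was followed by Filip1l, Gm2136 and Trim12c, at 0.07, 0.08 and 0.09, with log2 fold changes from 0.27 to 0.40 that did not pass the test either.

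Of 5 further genes used as CA1 pyramidal markers, 1 fell and 4 did not pass the test, with a median log2 fold change of -0.37. Over all genes tested, 15.0% were called lower, so 1 of 5 is near that share. Ccn3, a secreted matricellular protein, had levels of 82.5, 42.4 and 65.9 CPM in control and 38.8, 31.7 and 30.5 CPM in the libraries labelled KD. These did not overlap, and the log2 fold change was -0.92 (SE 0.22, edgeR adjusted p = 0.0161). Ociad2, the transcription factor Etv1 and the mannosidase Man1a had log2 fold changes of -0.37, -0.12 and -0.06 with groups that overlapped. Ccn3 lost its call without control 1, control 3 or the library labelled KD 2. Without the library labelled KD 1, 3 of the 5 genes were called lower, and DESeq2 called 2. The summed level of these 5 genes was 298.1 to 367.3 CPM in control and 258.1 to 290.0 CPM in the libraries labelled KD. The summed level of Wfs1, Pou3f1, Fibcd1, Mpped1 and Spink8 was 362.6 to 442.5 CPM in control and 221.5 to 294.5 CPM in the libraries labelled KD.

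Markers of other cells and of neurons in general moved between the same libraries, where 15.0% of all genes tested were called lower and 15.6% higher. Of 10 pan-neuronal genes 9 fell, with a median log2 fold change of -0.45, among them Rbfox3 (-1.35) and Snap25 (-1.01), and their summed level was 5383 to 5687 CPM in control and 3200 to 4015 CPM in the libraries labelled KD. The number called lower was 4 without control 1 and 5 without control 2, control 3 or the library labelled KD 2. The number called higher was 0 to 1 when each library was left out. Of 6 excitatory neuron genes 4 fell, with a median of -0.53, led by the transcription factor gene Neurod6 (-2.21) and Camk2a (-0.73). Of 10 genes of GABAergic interneurons 6 fell, with a median of -1.02, led by Sst (-1.42) and the vesicular transporter gene Slc32a1 (-1.25), and their sum was 1020 to 1133 CPM in control and 440.8 to 671.8 CPM in the libraries labelled KD. Of these 10 genes, 2 had a log2 fold change above 0, and 0 to 1 were called higher when each library was left out. Genes of GABAergic interneurons thus fell in the same libraries as the CA1 markers, whose median was -1.05. The pan-neuronal and excitatory lists cover CA1 pyramidal neurons as well as other neurons. The part of other neurons in the lower CA1 markers was not tested.

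Among other hippocampal neurons, 3 of 8 tested CA2 and CA3 genes fell and 1 rose, with a median log2 fold change of -0.26, or -0.46 and -0.12 without the libraries labelled KD 1 and KD 3. Iyd and Cdh24 fell with log2 fold changes of -2.50 and -1.31, and Bok rose by 0.89. Of 8 dentate granule genes, 3 fell and 1 rose, with a median of -0.39. Lct and Tdo2 fell with log2 fold changes of -1.60 and -1.43, and Stxbp6 rose by 0.63. The number of dentate genes called higher was 2 with DESeq2, with library-size scaling, without a filter, with the filter at 50 counts, with the replicate block and without the library labelled KD 1. Of 8 genes of neighbouring cortex and thalamus, 3 fell, with a median of -0.62, led by Nts (-1.22) and Fezf2 (-1.19), and 1 was called lower without control 1 or control 3. The median of these 8 genes was -0.38 without the library labelled KD 1. Each of these lists thus held genes that fell and genes that did not, as the CA1 markers did, and their part in the lower CA1 markers was not tested. The shares over all genes tested were 15.0% lower and 15.6% higher.

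All 12 microglial genes rose, with a median log2 fold change of 1.03, led by the integrin gene Itgam (1.58) and the fractalkine receptor gene Cx3cr1 (1.53). Their sum was 1437 to 1796 CPM in control and 3013 to 3925 CPM in the libraries labelled KD. Of 6 genes of oligodendrocyte precursors 5 rose (median 0.53), led by Gpr17 (0.93) and Sox10 (0.73), and of 8 endothelial genes 3 rose (median 0.50), led by Cldn5 (1.08) and Itm2a (0.69). Of 10 astrocyte genes, 1 rose and 5 fell (median -0.29), with Aqp4 at 0.67 and S100b and Gja1 at -0.72 and -0.67. Of 10 oligodendrocyte genes, 1 rose and 1 fell (median 0.11), namely Mag (0.71) and Mal (-0.79). Their median was -0.04 without the library labelled KD 1 and 0.28 without the library labelled KD 3. Without the library labelled KD 1, 5 endothelial and 3 astrocyte genes were called higher and 2 oligodendrocyte genes lower. Mal lost its call without control 2, control 3 or the library labelled KD 2, and 4 oligodendrocyte genes were called higher without the library labelled KD 3. The part of these glial and vascular cells in the lower CA1 markers was not tested. For all genes tested, the shares called lower and higher were 15.0% and 15.6%, and the oligodendrocyte counts were not above them.

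**Figure D3:**
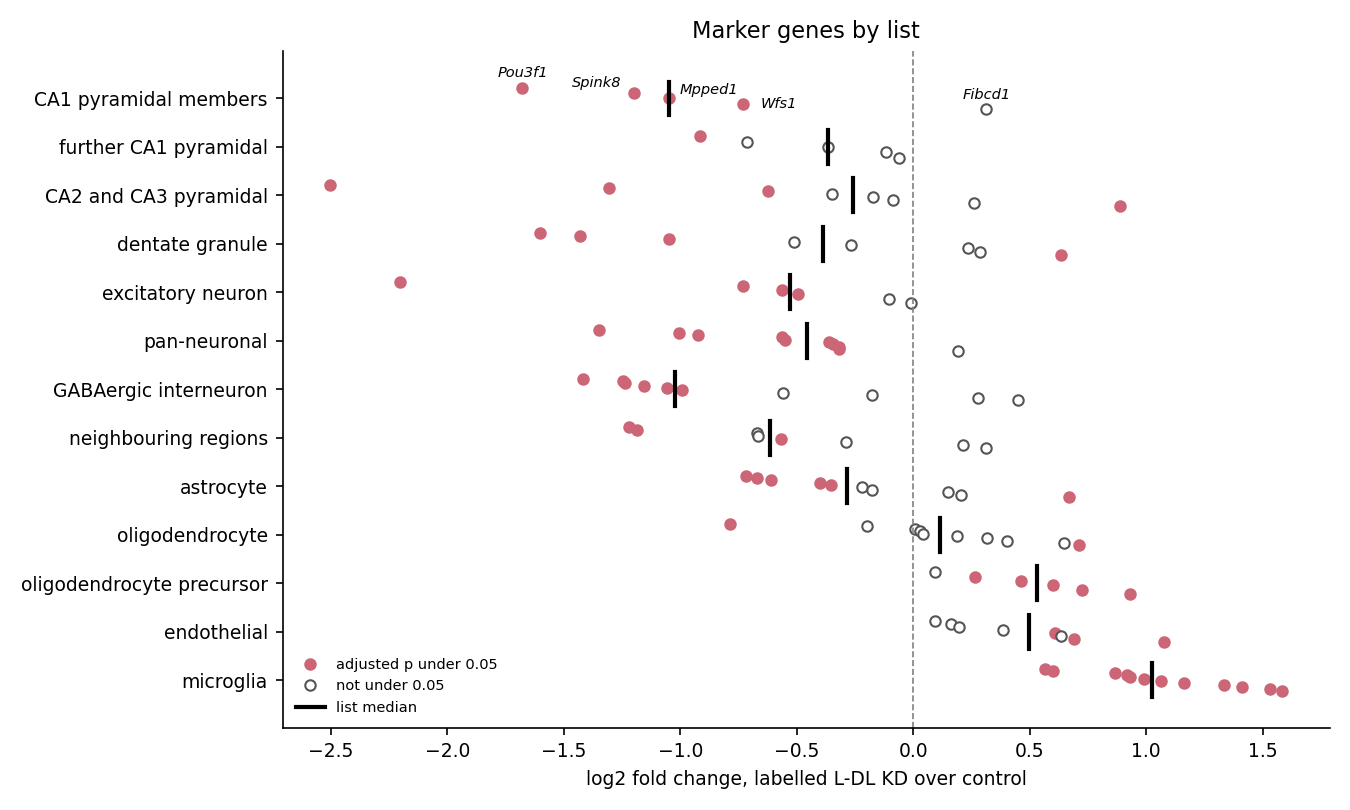
Log2 fold change of each gene (points, x axis, libraries labelled KD over control) by marker list (y axis), with genes at an adjusted p under 0.05 filled, the others open, and the median of each list as a black bar. The 5 CA1 markers have a median of -1.05 with Fibcd1 alone above 0, the microglial genes all lie above 0, and the choroid plexus, stress response and relatives lists are not drawn.

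The splicing table gave 8 events for Wfs1, Fibcd1, Mpped1 and Spink8 and none for the single-exon gene Pou3f1. Its groups are named by number alone. They were assigned from the sign of its inclusion difference and the study's definition of that difference as L-DL KD minus control, and its libraries carry no replicate number. Inclusion is given as percent spliced in (PSI), the share of transcripts with the alternative segment, here as a fraction from 0 to 1. Of the 8 events, 3 had enough junction counts of both forms to be tested, and 0 were called. Over all 18829 events tested, 48 were called (0.255%) by edgeR at an adjusted p under 0.05, and 13.3% had an unadjusted p under 0.05. This count was not stable, at 0 with limma and, with edgeR, 3 without control library a, 5 without b and 0 without c, and 52, 3 and 16 without library a, b or c labelled KD, where the letters only name the libraries of the splicing table. Of the 3 tested events of the markers, none had an unadjusted p under 0.05, and limma called 0 of them.

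Of the tested segments, 2 are printed 5′ to 3′ as they stand in the GENCODE transcript, from the plus strand of GRCm38, with the alternative segment in capitals and 20 bases of the flanking exons on each side in lower case. The Spink8 exon is shown because it was the only one of the 8 segments that was skipped in about as many reads as it was included in, and the Mpped1 segment because it is a short shift of a 3′ splice site.
Spink8 exon 4 of Spink8-202, chr9:109824509-109824551: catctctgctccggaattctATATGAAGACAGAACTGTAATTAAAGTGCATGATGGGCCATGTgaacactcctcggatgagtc
Mpped1 start of exon 5 of Mpped1-201, chr15:83852040-83852043: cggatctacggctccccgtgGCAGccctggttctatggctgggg

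The Spink8 exon is 43 nt long, all of it coding in Spink8-202, and its length is not a multiple of 3, so that its skipping shifts the reading frame. Spink8-202 has 105 codons, and Spink8-201, annotated without this exon, has 95. Inclusion junctions had 39, 24 and 40 counts in control and 12, 15 and 5 in the libraries labelled KD. Skipping junctions had 36, 20 and 22 counts in control and 6, 18 and 9 in the libraries labelled KD. Both forms were thus seen in each library, at low counts in the libraries labelled KD. PSI was 0.458, 0.484 and 0.587 in control and 0.609, 0.394 and 0.302 in the libraries labelled KD, and the groups overlapped. The log2 odds of inclusion changed by -0.44 (SE 0.70, edgeR adjusted p = 0.863), and a change of PSI was not detected. The low counts and the spread between libraries were not separated.

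The 4 nt segment at the start of Mpped1 exon 5 was included nearly always. Its PSI was 0.981 ± 0.00415 in control and 0.993 ± 0.0124 in the libraries labelled KD (SD, n = 3 each), with a log2 odds change of 0.77 (SE 0.96, edgeR adjusted p = 0.816). The 226 nt exon 4 of Mpped1-201 at chr15:83836273-83836498 had a PSI of 0.959 ± 0.0401 in control and 0.970 ± 0.0196 in the libraries labelled KD (SD, n = 3 each). Its log2 odds change was 0.63 (SE 0.85, edgeR adjusted p = 0.832) and turned to -0.57 without 1 control library. Both segments of Mpped1 were therefore close to full inclusion in every library.

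**Figure D4:**
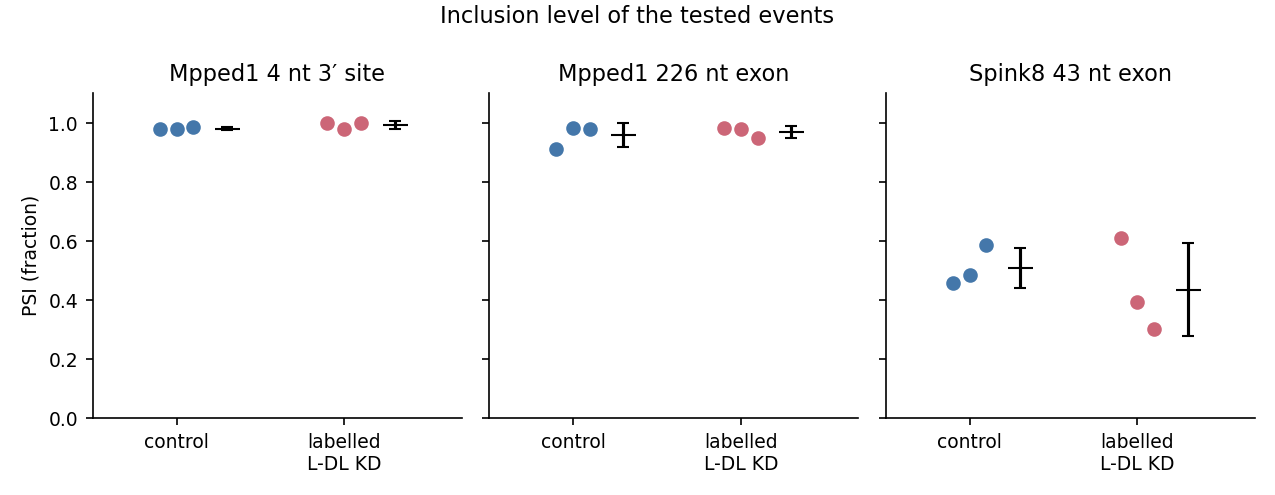
PSI as a fraction (y axis, 0 to 1) of the 3 tested splicing events of Mpped1 and Spink8 in the 3 control libraries (blue) and the 3 libraries labelled KD (red), with the mean ± SD as the bar at the right of each group. Both Mpped1 segments lie above 0.9 in every library, and the Spink8 exon lies between 0.302 and 0.609.

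The other events had too few skipping reads to be tested. Wfs1 had an alternative 3′ splice site that removes 86 nt of coding exon 7 of Wfs1-201 (chr5:36971624-36971709), with 5 skipping counts among 1544 counts of both forms. Fibcd1 had a skipped 474 nt exon 2 (chr2:31838298-31838771), with 4 skipping counts among 497, all of them in 1 control library. The further 3 events of Mpped1 had between 5.5 and 13 counts per library on average or too few counts of one form.

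The inclusion and skipping junction counts together give a second count of the same genes in the same libraries, which is not independent of the gene counts. As CPM of all junction counts, the Fibcd1 exon 2 event had 10.8, 5.92 and 11.4 in control and 9.38, 15.0 and 15.4 in the libraries labelled KD, a log2 ratio of the means of 0.50. The log2 ratio was -0.67 for the Wfs1 event, -1.31 for the Mpped1 exon 4 event and -1.64 for the Spink8 event. Junction reads thus gave the same order of Fibcd1 above Wfs1 above Mpped1 and Spink8 as the gene counts.

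RefSeq start sites on GRCm38.p6 were matched for 3 of the 5 markers, Wfs1, Fibcd1 and Mpped1, and not for Pou3f1 and Spink8. The 250 nt before the RefSeq start are printed 5′ to 3′ on the strand of the gene, because Wfs1 and Mpped1 fell and Fibcd1 did not. By the GENCODE spans given above, most of the Wfs1 window and all of the Mpped1 window lie within the gene. The Fibcd1 window lies before its gene, so the windows are not alike in position. Capitals mark matches to the motifs searched on both strands.
Wfs1, minus strand, chr5:36988983-36989232: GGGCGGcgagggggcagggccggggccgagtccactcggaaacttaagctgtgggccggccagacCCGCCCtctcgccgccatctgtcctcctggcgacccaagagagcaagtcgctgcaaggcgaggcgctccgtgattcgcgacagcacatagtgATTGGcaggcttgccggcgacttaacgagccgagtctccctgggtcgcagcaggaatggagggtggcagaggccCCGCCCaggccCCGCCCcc
Mpped1, plus strand, chr15:83779773-83780022: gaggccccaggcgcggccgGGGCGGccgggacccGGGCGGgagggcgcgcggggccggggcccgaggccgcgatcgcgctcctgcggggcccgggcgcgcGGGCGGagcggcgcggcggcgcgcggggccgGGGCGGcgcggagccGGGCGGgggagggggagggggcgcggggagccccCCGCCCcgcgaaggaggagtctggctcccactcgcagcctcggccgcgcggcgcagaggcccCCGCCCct
Fibcd1, minus strand, chr2:31846006-31846255: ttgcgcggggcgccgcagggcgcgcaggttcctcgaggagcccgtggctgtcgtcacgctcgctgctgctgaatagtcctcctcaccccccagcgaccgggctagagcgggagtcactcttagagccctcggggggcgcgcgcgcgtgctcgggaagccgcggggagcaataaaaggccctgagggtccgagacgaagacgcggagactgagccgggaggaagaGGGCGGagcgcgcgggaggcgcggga

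The GC box GGGCGG had 4 matches in the Wfs1 window, 7 in the Mpped1 window and 1 in the Fibcd1 window, and 32.7% of 32851 mouse promoter windows of that length held one. The CCAAT box CCAAT had 1 match, in Wfs1 at position -93 from the start, and 33.8% of all windows held it. No window matched the POU octamer ATGCAAAT (1.60% of all windows), the TATA box TATAAA (12.4%), the cAMP response element TGACGTCA (1.55%) or the E-box CAGCTG (13.0%). The endoplasmic reticulum stress response element, which is CCAAT and CCACG with 9 bases of any kind between them and so overlaps the CCAAT box, was held by 0.113% of all windows and by none of these. GC content was 69.6% for Wfs1, 88.8% for Mpped1 and 71.6% for Fibcd1, against a median of 52.4% over all windows. Mpped1 has a second RefSeq start, whose window (chr15:83784579-83784828) had a GC content of 46.8% and no match. A match describes the letters of a window, and the binding of a factor was not measured.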

How the data were processed

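The authors sequenced 150 nt read pairs and aligned them to GRCm38. The submitters' processing notes name HISAT2 2.1.0, Bowtie 1.1.2 and HTSeq 0.6.1. The deposited gene table holds raw read counts, without normalization, and the deposited splicing table holds junction counts of both forms from rMATS, whose p-values and FDR were not used and whose inclusion levels served only to tell which group is which. The strand setting of the counting is not given in the sources used here. The 5 markers and all gene lists were chosen with earlier results of these data known.

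Genes were kept where 3 or more libraries reached 10 counts, and were tested with edgeR 4.0.16 (quasi-likelihood, TMM) in R 4.3.3, Benjamini-Hochberg adjusted over all genes, 3 control against 3 libraries labelled L-DL KD, at an adjusted p under 0.05. CPM used TMM-scaled library sizes. Events with a mean of at least 20 junction counts, and at least 1 of each form, were tested with edgeR on both forms with a term for the library. PSI used the effective lengths of the table. Likeness used genes with a mean of at least 1 CPM and a prior count of 2. Gene positions, exon lengths and event sequences came from GENCODE M21, promoters from RefSeq.

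Named were the 5 markers, Hnrnpdl, the 3 genes most like each marker, up to 2 genes per direction with the largest change past the threshold in each list, and every gene among the further CA1 markers and relatives, except 1 that is not reported here. Every tested event was named, and of the others the one with the most counts per gene. Gm2164 was named after its values were seen, as it overlaps Pou3f1. In a simulation of this gene comparison on 17311 genes, 126 of 196 genes changed by 1 on the log2 scale were called, with 8 unchanged ones. In the data, 5379 of 17621 genes were called, so the simulation held far fewer changed genes. It does not give the share of changed genes that was found in the data. Alternatives were DESeq2 1.42.0, other scalings and filters, limma 3.58.1 on the log2 ratio of both forms, a block for the replicate number, and the omission of each library.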

Additional observations from a re-analysis of the deposited data

How the results depend on the processing

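Across DESeq2, library-size and relative log expression scaling, no filter and a filter at 50 counts, the calls of the 5 markers did not change, with log2 fold changes of -0.75 to -0.70 for Wfs1, -1.69 to -1.65 for Pou3f1, 0.30 to 0.35 for Fibcd1, -1.05 to -1.02 for Mpped1 and -1.25 to -1.17 for Spink8, the replicate block included. The number of genes called over all genes was 3498 to 6477 when each library was left out in turn, against 5379. Leaving out each library gave log2 fold changes of -0.94 to -0.55 for Wfs1 (edgeR adjusted p from 0.0144 to 0.103), -1.43 to -0.91 for Spink8 (edgeR adjusted p from 0.0163 to 0.07) and 0.16 to 0.50 for Fibcd1 (edgeR adjusted p from 0.026 to 0.599). Wfs1 lost its call without control 1, control 2 or the library labelled KD 3, Spink8 without control 1 or control 3, and Fibcd1 gained one without the library labelled KD 1. The number of the 5 markers called lower was 2 to 4, with 2 without control 1, and the number called higher was 0 to 1. These fits use fewer libraries, and the cause of each lost or gained call was not tested. The log2 odds change of Mpped1 exon 4 was -0.57 to 1.08 when each library was left out, with -0.57 (edgeR adjusted p = 0.894) without 1 control library, and 0 events of the markers were called in any setting. Spink8 rested on 26 to 113 reads in a library and had the largest SE of the 5 markers (0.31), and counting error was not separated from the spread between libraries.

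Deviations of libraries with the same replicate number had correlations of 0.05, 0.13 and -0.11, so the numbers were not treated as pairing the libraries, and not every library correlated best with its own number. With the replicate number as a block, 4634 genes were called in place of 5379, and the 5 markers kept their calls, with log2 fold changes of -0.75 for Wfs1, -1.69 for Pou3f1, 0.30 for Fibcd1, -1.05 for Mpped1 and -1.25 for Spink8.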
